A study of Mus musculus with 16 samples.

Results

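The livers of young control mice were compared at 1 week of age, while the pups still suckle, and at 3 weeks, the usual age of weaning. The members are the arrays labelled fl/fl at Cdh1 and wt/wt at Cre at these ages, 2 at 1 week and 3 at 3 weeks, so 5 of the 16 arrays of the series. All 16 mice were male, and both copies of Cdh1 were floxed in each (fl/fl). The control mice (wt/wt) lacked the Cre gene, while the Cre mice (fl/fl | +/wt) carried it in a line named cdh1albcre, made to remove Cdh1 from liver. Cdh1 was therefore floxed but intact in the control mice, which were not plain wild types. Each array holds RNA from the middle of the left lobe of 1 mouse, and the 3 control livers at 6 weeks are given beside the others as levels only. The mice were kept free of specified pathogens on standard chow and stood on a grid without chow from the morning until dissection. The labels do not say how suckling pups were handled for this or whether the 3-week mice had been separated from their mothers, so age, diet and nursing cannot be told apart.

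The fetal liver is the main site of blood formation before birth, and islands of red cell and granulocyte precursors remain in it for some time afterwards while the bone marrow takes over. Hepatocytes of the newborn still make fetal proteins such as alpha-fetoprotein and still divide, and they live on milk, which is rich in fat and poor in sugar. Around weaning the diet turns to starch and protein, and hepatocytes acquire their adult enzymes for drugs, amino acids, bile acids and fat synthesis. Pulses of growth hormone later set the differences between male and female liver.

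Levels are given as log2 of the processed spot signal minus the array's own 75th percentile, so a level of 0 is the signal below which 75% of the spots of that array lie, and a step of 1 is a doubling. Levels of different genes come from different probes and are not compared with each other. The 5 arrays had 71.9% to 78.0% of their spots well above background. Correlations over all genes (Pearson r) were 0.990 to 0.994 between mice of the same age and 0.941 to 0.945 between the ages, given as a description. Both 1-week mice were on the second slide. The 3-week mice were split, with mouse 1 on the first slide and mice 2 and 3 on the second. The 1-week mouse 2 and the 3-week mouse 3 share the first part of their titles, and 3-week mice 1 and 2 share another. The 3-week mouse 3 stood apart from its 2 companions for several genes described here. Changes are 3 weeks minus 1 week with their standard error (SE), n = 2 and n = 3 mice, and a gene is called where limma's adjusted p is under 0.05 over all 17300 genes tested. Of these, 8554 (49.4%) were called, 4749 (27.5%) higher and 3805 (22.0%) lower at 3 weeks. Called changes of at least 2-fold were found for 3360 genes (19.4%), of which 1321 (7.64% of the genes tested) were higher and 2039 (11.8%) lower. The counts of each gene list below are read against these shares. With quantile normalization the split turned to 3687 higher and 4533 lower, and with the authors' deposited log2 values to 3692 higher and 4559 lower. Quantile normalization moved the median of all genes from 0.11 to -0.00, so small changes are relative to that shift. The values of the 2 ages did not overlap for 11775 genes (68.1%). The hepatocyte genes Alb, Apoc3 and Hnf4a were well above background in all 5 livers. The change differed from that in Cre livers for no gene at an adjusted p under 0.05 in limma (0.0%), and for 1758 genes (10.2%) at an unadjusted p under 0.05.

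**Figure D1:**
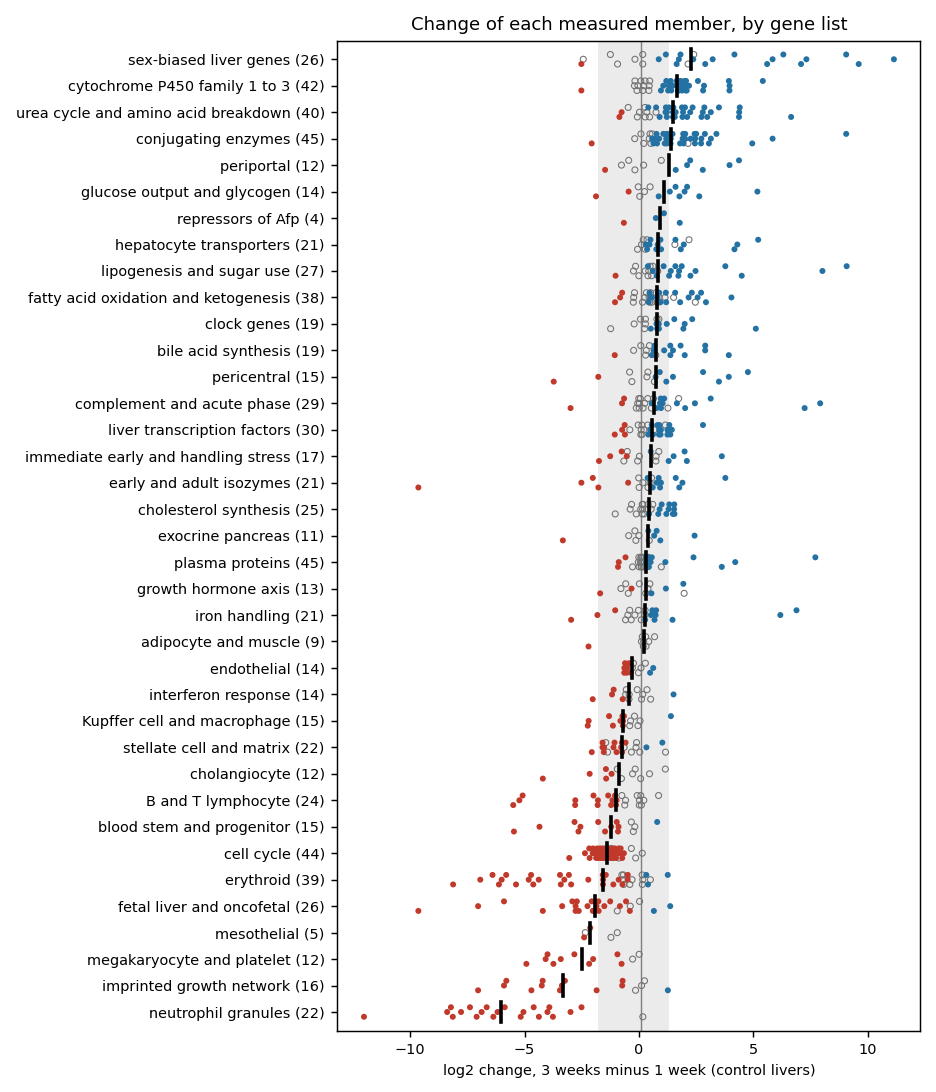
Each point is a measured gene of the list named at the left (number of genes in brackets), placed at its log2 change from 1 to 3 weeks in control livers; blue and red points were called higher and lower, open points were not called, and the black bar is the list's median. The grey line and band are the median and the 5th to 95th percentile of all 17300 genes, 0.11 and -1.74 to 1.26; the neutrophil list has the lowest median (-6.02) and the sex-biased list the highest (2.26).

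Genes of red cell formation were lower at 3 weeks, led by genes of the red cell membrane. Of 39 measured erythroid genes, 26 were called lower and 3 higher, with a median change of -1.57 beside 0.11 over all genes. A gene could be kept through 1 group alone, such as the 1-week livers. Among the 32 measured above background on all 5 arrays, 19 were called lower and 3 higher, with a median of -0.82. With normexp, another background correction, the median of the 39 was -1.28, with 25 called lower and 2 higher. Of the 15 genes for the red cell membrane and its skeleton, 14 were called lower, with a median of -4.62. In whole tissue, fewer cells of a type and less RNA per cell cannot be told apart. Rhd, the Rhesus blood group protein, had levels of 3.34 and 2.99 at 1 week and -4.77, -5.42 and -4.69 at 3 weeks. The 3-week values lie more than 7 units below both 1-week values, and the change was -8.12 ± 0.65 (SE, limma adjusted p = 1.42e-06). Kel, the Kell blood group protein, went from 1.56 and 1.42 to -5.48, -5.79 and -5.06 (-6.94 ± 0.54, limma adjusted p = 1.25e-06). Both were well above background in only 2 of the 3 mice at 3 weeks, so the sizes of their changes are approximate. The membrane protein gene Epb42 stood at -0.39 and -0.61 at 1 week and was not well above background in any 3-week mouse, so its level was at least 35.5-fold lower. Such bounds compare the brighter group's mean with the lowest signal counted as above background on the dimmer group's arrays. Ermap was the membrane gene that was not called (0.17 ± 0.08), and its 3 probes disagree, with changes from -7.42 to 0.17.

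The regulators of red cell formation were lower as well. Tal1, a transcription factor of blood cell precursors, had levels of 1.00 and 0.80 at 1 week and -2.41, -2.30 and -2.37 at 3 weeks (-3.26 ± 0.23, limma adjusted p = 4.89e-07). Gata1, the master regulator of the red cell line, was at 1.29 and 1.14 and then at -4.49, -5.33 and -4.54. Tfrc, the transferrin receptor through which precursors take up iron, went from 2.18 and 2.85 to 0.19, -0.60 and -0.93 (-2.96 ± 0.49, limma adjusted p = 0.00034). In all 3 the groups were far apart, with no overlap. Hemgn, a nuclear protein of blood precursors, was called in the other direction, from 6.61 and 6.60 to 7.85, 7.91 and 7.82, and is read by 1 probe.

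None of the 5 adult globins measured was called between 1 and 3 weeks. Hbb-bt, a beta-globin, was at 8.76 and 8.59 at 1 week, at 7.85, 7.78 and 8.16 at 3 weeks, and at 4.72, 6.12 and 6.23 at 6 weeks. Hba-a2, an alpha-globin, was at 9.29 and 9.14, then 9.27, 9.35 and 9.47, then 7.29, 8.28 and 8.44. For 4 of the 5 all 3-week values lay below both 1-week values, as they did for 29.7% of all genes. Hba-a2 was the exception, and the median change over the 5 was -0.68. In both genes shown the 6-week values were lower than those at 3 weeks. Globin genes are near copies of each other, and their probes may share signal. Of the 8 heme synthesis genes 3 were called lower and 2 higher, with changes between -0.89 and 0.50. The embryonic globins Hbb-bh1 and Hbb-y, used before the fetal liver stage, gave changes of 0.04 ± 0.17 and 0.30 ± 0.30 and were not called. For Hbb-y the 2 probes differ in sign, and the list's median turned to -0.21 with the mean of the probes.

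The promoter of Rhd is shown because it holds the letters AGATAA, the core bound by GATA factors, close to the start. The window runs from 250 bases before the start of the gene to 50 after it, on the plus strand at chr4:134864286-134864585 (RefSeq, GRCm38.p6), with the motif in capitals at -43 to -38 from the start.
Rhd: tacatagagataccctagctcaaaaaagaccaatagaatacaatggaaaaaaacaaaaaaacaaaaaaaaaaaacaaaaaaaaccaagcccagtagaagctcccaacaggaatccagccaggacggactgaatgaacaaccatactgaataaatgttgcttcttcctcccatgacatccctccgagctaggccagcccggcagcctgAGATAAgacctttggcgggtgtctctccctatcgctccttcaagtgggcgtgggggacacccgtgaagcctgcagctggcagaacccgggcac
These letters, searched on both strands, are in 9 of the 28 erythroid genes with a promoter in RefSeq's table (32.1%). Of the 9, 5 were called lower, beside 26 of all 39 measured erythroid genes. They are in 12.7% of all 27025 genes with a promoter and in 25.7% of the cytochrome P450 genes described below, so the match is not particular to blood genes. The motifs shown here were picked from 15 after their counts had been seen and are descriptions.

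Genes of the neutrophil fell most, by the list medians plotted above. Of 22 measured genes of neutrophil granules and cytoplasm, 21 were called lower and none higher, all 21 by at least 2-fold, with a median of -6.02. The median was -4.02 with normexp and -5.08 with the authors' deposited values, each with 21 called lower. The sizes of such falls thus depend on the processing. Stfa1, a stefin that inhibits cysteine proteases in the neutrophil cytoplasm, stood at 6.90 and 6.91 at 1 week, at -4.63, -5.33 and -5.38 at 3 weeks and at -7.31, -7.85 and -7.42 at 6 weeks. Its change of -12.02 ± 0.40 (limma adjusted p = 6.04e-10) was the largest fall in the named genes. Its relatives followed: Cstdc5 fell by 11.46 ± 0.31, Cstdc4 by 11.13 ± 0.54, Stfa2l1 by 10.30 ± 0.23, Stfa3 by 8.38 ± 0.23 and Csta2 by 7.57 ± 0.19. Cstdc4 was well above background in 2 of the 3 mice at 3 weeks. The stefin genes are relatives that are alike to different degrees, so how the signal divides among them is uncertain.

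Genes of each granule class moved with the stefins. Ngp, a protein of the secondary granules, was at 4.07 and 3.87 and then at -3.30, -4.53 and -4.66 (-8.14 ± 0.90, limma adjusted p = 1.73e-05). Ltf, the iron-binding lactoferrin of the same granules, was at 4.62 and 4.65 and then at -2.26, -3.74 and -3.43. In both, the 3-week mouse 1 kept the highest level of its group, and so did it for Stfa1. Camp, the antimicrobial cathelicidin, fell by 6.66 ± 0.26, and Ctsg, the cathepsin G of the primary granules, by 4.00 ± 0.21. Itgb2l, an integrin subunit of neutrophils, was at 0.54 and 0.57 and was not well above background in any 3-week mouse, so that it was at least 73.9-fold lower. Lcn2, which binds bacterial iron carriers and is also made by hepatocytes in the acute phase, fell by 2.99 ± 0.78. The exception was Elane, the neutrophil elastase, at 3.19 and 3.18 and then 3.40, 3.33 and 3.33, with a change of 0.17 ± 0.18 that was not called.

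**Figure D2:**
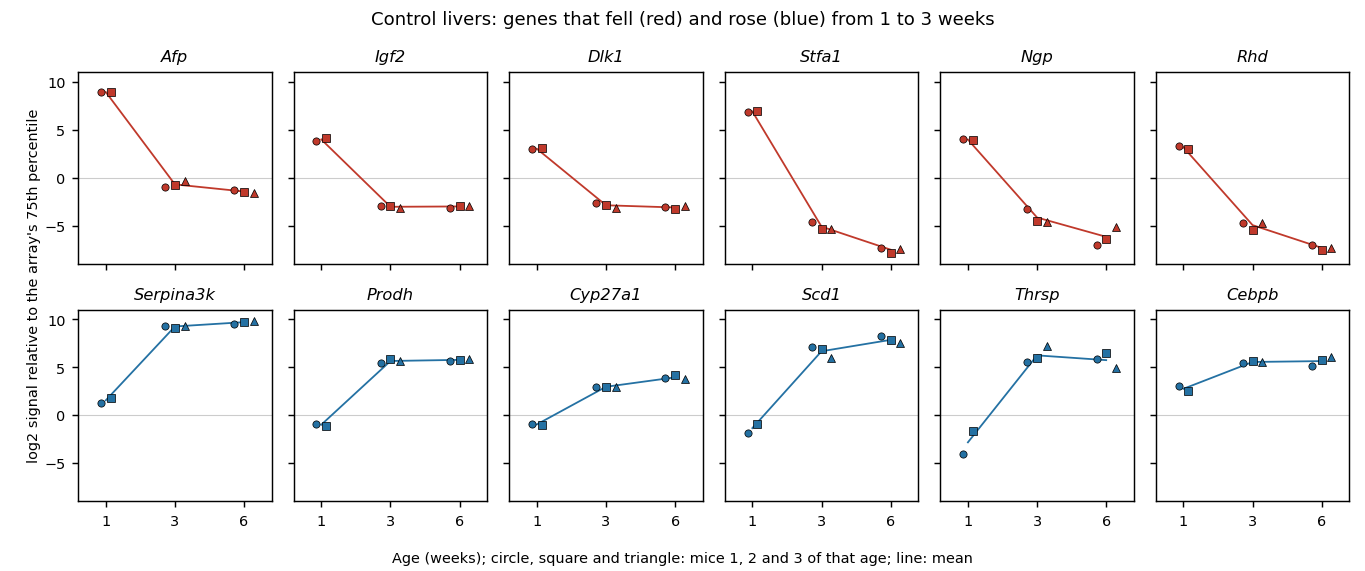
Levels of 12 genes in control livers (log2 signal, each array's 75th percentile set to 0) at 1, 3 and 6 weeks, with 1 symbol per mouse and a line through the means. The upper row holds genes that fell (Afp, Igf2, Dlk1, Stfa1, Ngp, Rhd) and the lower row genes that rose (Serpina3k, Prodh, Cyp27a1, Scd1, Thrsp, Cebpb); no 3-week value overlaps a 1-week value, and Afp goes from 8.97 and 8.89 to between -1.02 and -0.30.

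The promoters of 3 genes that lost most of their signal are shown on their own strand, from RefSeq (GRCm38.p6). Stfa1 lies at chr16:36276898-36277197 on the plus strand, Stfa3 at chr16:36455343-36455642 on the minus strand and Itgb2l at chr16:96443565-96443864 on the minus strand. Capitals mark AGATAA in the stefins, at -75 and -64 in Stfa1 and at -66 and -39 in Stfa3. In Itgb2l they mark GAGGAAGT, the purine-rich core of factors such as the myeloid regulator PU.1, read on the other strand at -57 to -50.
Stfa1: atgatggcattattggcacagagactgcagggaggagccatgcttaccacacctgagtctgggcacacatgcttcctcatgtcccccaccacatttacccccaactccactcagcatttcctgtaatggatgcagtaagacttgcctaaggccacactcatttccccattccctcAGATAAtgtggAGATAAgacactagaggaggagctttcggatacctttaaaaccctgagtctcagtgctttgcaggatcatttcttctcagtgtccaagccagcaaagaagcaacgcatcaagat
Stfa3: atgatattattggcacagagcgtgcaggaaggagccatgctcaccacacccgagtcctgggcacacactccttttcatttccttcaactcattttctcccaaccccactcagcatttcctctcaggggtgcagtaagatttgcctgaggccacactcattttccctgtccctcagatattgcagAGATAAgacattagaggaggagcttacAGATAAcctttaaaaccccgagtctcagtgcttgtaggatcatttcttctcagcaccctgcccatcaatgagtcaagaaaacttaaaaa
Itgb2l: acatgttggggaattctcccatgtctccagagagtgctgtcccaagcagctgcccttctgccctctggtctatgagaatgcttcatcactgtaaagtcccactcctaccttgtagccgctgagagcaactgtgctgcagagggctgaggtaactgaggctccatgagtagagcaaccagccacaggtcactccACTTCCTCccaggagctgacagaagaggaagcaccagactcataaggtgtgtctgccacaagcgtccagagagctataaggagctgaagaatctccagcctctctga
The windows of Stfa1 and Stfa3 are 81.0% identical, and those of 7 stefin genes share 43.4% to 90.5% over 21 pairs. GAGGAAGT is in 6 of 20 neutrophil promoters (30.0%) and in 3.69% of all genes with a promoter, and AGATAA is in 5 of the 20. The stefins are related genes and do not count as independent matches.

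Platelet and progenitor genes were lower as well. Of 12 megakaryocyte and platelet genes 10 were called lower and none higher, with a median of -2.50. With normexp 10 were called lower too, but the median was -1.14. Ppbp, a chemokine of platelet granules, was at 1.78 and 2.84 at 1 week and at -2.01, -2.84 and -3.00 at 3 weeks (-4.92 ± 0.53, limma adjusted p = 1.48e-05). The platelet receptor genes Gp9 and Gp1ba fell by 4.08 ± 0.39 and 4.00 ± 0.31, while Clec1b, which sinusoidal endothelium expresses too, changed by 0.01 ± 0.17. Of 15 stem and progenitor genes 11 were called lower and 1 higher, with a median of -1.21. Myb, a factor that keeps progenitors dividing, went from -0.10 and 0.14 to -4.68, -5.23 and -6.42 (-5.46 ± 0.54, limma adjusted p = 7.38e-06), the last below background. Lyl1, a partner of the Tal1 programme, fell by 2.82 ± 0.24. The gene called higher was Hlf (0.80 ± 0.25), a factor of stem cells that is also a clock output gene of hepatocytes. It lost its call without either 1-week mouse.

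Among 24 lymphocyte genes, 14 were called lower and none higher (median -1.02), and some genes of B cell precursors fell most. With normexp the list's median was -0.58, with 14 called lower and 1 higher. Vpreb1, part of the pre-B cell receptor, was at 0.55 and 1.29 and then at -4.96, -4.32 and -3.63 (-5.23 ± 0.45, limma adjusted p = 2.81e-06). Igll1, another part of that receptor, and Rag1, which cuts immunoglobulin genes, were not well above background in any 3-week mouse and were at least 14.1-fold and 7.62-fold lower. Gzma, a granzyme of killer cells, fell by 2.79 ± 0.35. Other genes of the list, the B cell gene Cd79a and the T cell genes Cd4 and Cd8a, gave changes of 0.01, 0.02 and 0.11 and were not called. Of the 15 Kupffer cell and macrophage genes, 9 were called lower and 1 higher, with a median of -0.70. Only 3 were called lower without 1-week mouse 1, and 4 with the title codes as a block. Marco, a scavenger receptor, was at 6.43 and 5.80 and then at 3.60, 4.22 and 3.79 (-2.24 ± 0.50, limma adjusted p = 0.00264). Clec4f, a receptor specific to Kupffer cells, stayed between 3.65 and 4.00 in all 5 mice and was not called. Cd163, a hemoglobin scavenger receptor, was called higher (1.40 ± 0.41), but 1 of the 2 1-week mice was below background, and the call was lost without 1-week mouse 2.

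Genes of the supporting cells of the liver were called lower more often than higher. Of 14 endothelial genes, 7 were called lower and 2 higher, all by under 2-fold, with a median of -0.32. The count called lower was 4 without 1-week mouse 1 or within the second slide, and 3 with the title codes as a block. Cdh5, the cadherin of endothelial junctions, fell by 0.64 ± 0.14, although not with that block (-0.43), while Clec4g, a lectin of the sinusoidal lining, rose by 0.62 ± 0.18, although not with quantile normalization or without 1-week mouse 2. Of 22 stellate cell and matrix genes, 12 were called lower and 2 higher (median -0.76), with 7 called lower under the block. Acta2, the smooth muscle actin of activated stellate and vessel cells, was at 1.59 and 2.38 and then at -0.35, 0.17 and -0.06 (-2.06 ± 0.23, limma adjusted p = 1.96e-05). Fbn1, a fibre protein of the matrix, fell by 1.59 ± 0.35. The median of the 12 bile duct genes was -0.86, or -0.34 with normexp. Of these 12 genes 5 were called lower, and 3 with the block or without 1-week mouse 2 or 3-week mouse 2. They were led by Cd24a, a surface protein of ducts and also of fetal liver cells, which went from 3.80 and 3.61 to -0.44, -0.91 and -0.14. Sox9, a factor of the duct line, fell by 1.43 ± 0.28.

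Markers of neighbouring tissues bear on what the pieces of liver held. All 5 mesothelial genes were lower in the mean and 2 were called, Wt1 (-2.40 ± 0.64) and Lrrn4 (-2.13 ± 0.76, above background in 1 of 3 mice at 3 weeks). All 5 were called with the slide as a block or within the second slide, and 4 without 3-week mouse 1 or with the authors' deposited values. They differed between 3-week mice, with summed levels of 1.58 in mouse 1, -0.83 in mouse 2 and 0.23 in mouse 3 beside 1.80 and 1.74 at 1 week. The calls of both were lost without 1-week mouse 1 or with the title codes as a block, and that of Lrrn4 also without 1-week mouse 2 or 3-week mouse 2 or 3. Of 11 exocrine pancreas genes 5 were called higher and 1 lower, but only 1 higher without 1-week mouse 1 or with the title codes as a block and 2 within the second slide, with summed levels of 3.49 and 3.72 at 1 week and 3.79 to 4.19 at 3 weeks. The enzyme genes that define the pancreas, such as Prss1 and Cela2a, were at or below -3.25 in all 5 mice, while the amylase gene Amy2a5, at 2.54 to 3.94, made up most of the sum. Pnliprp1, a lipase relative, was the one called lower (-3.33). Of 9 fat and muscle genes 1 was called, the muscle actin Acta1 (-2.21 ± 0.37).

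Genes of cell division were lower at 3 weeks and lower still at 6 weeks. Of 44 measured cell cycle genes 39 were called lower and none higher, with a median of -1.38, and for 41 of them both 1-week values lay above all 3-week values (29.7% of all genes). Kif23, a motor protein needed to split daughter cells, was at -0.15 and 0.03 at 1 week, at -2.12, -1.88 and -2.69 at 3 weeks and at -4.50, -4.11 and -4.26 at 6 weeks (-2.17 ± 0.29 from 1 to 3 weeks, limma adjusted p = 6.54e-05). Rrm1, a subunit of the enzyme that makes DNA building blocks, fell by 1.05 ± 0.11. Ccnd2, a cyclin of the first phase of the cycle, fell by 1.86 ± 0.19, while Ccnd1, the main cyclin of that phase in hepatocytes, was at 4.07 and 3.40 and then at 2.62, 2.24 and 3.72 and was not called. Some replication genes were highest in 3-week mouse 3. Cdc6, which loads the replication helicase, was at -4.40 and -4.24 in mice 1 and 2 and at -2.85 in mouse 3, and Mcm2, part of that helicase, at -0.95, -1.14 and 0.18. Kif23 did not follow that order and was lowest in mouse 3.

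Kif23 is shown for its promoter, from RefSeq (GRCm38.p6) at chr9:61946750-61947049 on the minus strand. Capitals mark TTTGAA at 2 to 7 after the start, an element known from genes of late cell cycle phases, and ATTGG at -7 to -3, which is CCAAT on the other strand.
Kif23: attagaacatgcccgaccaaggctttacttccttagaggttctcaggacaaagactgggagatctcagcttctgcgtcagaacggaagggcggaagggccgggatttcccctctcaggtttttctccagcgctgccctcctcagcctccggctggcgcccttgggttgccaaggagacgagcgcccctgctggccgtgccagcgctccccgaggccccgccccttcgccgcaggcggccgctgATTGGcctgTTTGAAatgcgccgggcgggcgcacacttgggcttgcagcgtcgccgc
TTTGAA is in 15 of 34 cell cycle promoters (44.1%) and 20.2% of all genes with a promoter. CCAAT is in 24 of the 34 (70.6%) and 41.1% of all. TTTGAA is also in 37.1% of cytochrome P450 promoters, and CCAAT in 94.1% of cholesterol synthesis promoters. Neither match is thus particular to cell cycle genes.

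Fetal liver genes were lost to very different degrees. Of 26 fetal and oncofetal genes 21 were called lower and 2 higher, with a median of -1.94. Afp, the fetal serum protein alpha-fetoprotein, was at 8.97 and 8.89 at 1 week, at -1.02, -0.80 and -0.30 at 3 weeks and at -1.26, -1.45 and -1.65 at 6 weeks. The groups are separated by over 9 units, and the change was -9.64 ± 0.35 (limma adjusted p = 1.59e-09), a 799-fold difference. Gpc3, a surface proteoglycan that restrains growth, was at 3.55 and 3.51, then 0.49, 0.62 and -0.57, then -4.04 to -5.00 at 6 weeks. Both genes were lower in each 6-week mouse than in any 3-week mouse. The RNA-binding proteins that mark fetal cells fell in part: Igf2bp2 by 2.77 ± 0.22 and Lin28b by 2.63 ± 0.43, the latter above background in 1 of 3 mice at 3 weeks. Lin28a, its close relative, changed by 0.03 ± 0.12. The genes called higher were Trim71 (1.37 ± 0.40), an RNA-binding ligase of early development, and Sall4 (0.65 ± 0.13), a stem cell factor. The probes of both disagree in sign, Trim71 lost its call without 1-week mouse 2 (1.23), and with the mean of its probes Sall4 was called lower, at -0.38.

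Imprinted genes of the growth network fell too. These genes are read from the copy of 1 parent, and many of them promote or restrain growth before birth. Of 16 measured, 12 were called lower and 1 higher, with a median of -3.30. Igf2, the fetal growth factor, was at 3.85 and 4.12 and then at -2.94, -2.99 and -3.22 (-7.03 ± 0.18, limma adjusted p = 3.23e-11). Dlk1, a surface protein of hepatoblasts, went from 2.95 and 3.08 to -2.68, -2.85 and -3.13, and Meg3, a non-coding RNA of the same imprinted region, from 4.81 and 5.30 to -0.90, -0.80 and -0.53. For these genes the 3-week mice agreed closely and lay far below both 1-week mice. Igf2 and Dlk1 were at their 6-week level by 3 weeks, at -3.14 to -2.94 and at -3.31 to -2.96, while Meg3 was lower at 6 weeks, at -2.35 to -2.09. Mest, Grb10, Plagl1, Cdkn1c and Peg3 fell by 4.25, 4.21, 3.45, 3.37 and 3.24. Igf2r, the receptor that clears Igf2, fell by 0.71 ± 0.14. Slc38a4, an amino acid carrier of hepatocytes, was the imprinted gene called higher (1.26 ± 0.22), while Gnas, Magel2 and Usp29 were not called. Igf2 and Dlk1 are members of the fetal list too.

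Of 4 known repressors of Afp, 3 were called higher and 1 lower. Zbtb20 was at 1.83 and 1.87 at 1 week and at 3.68, 3.38 and 3.86 at 3 weeks (1.78 ± 0.15, limma adjusted p = 2.02e-06), with no overlap. Zhx2 rose by 1.09 ± 0.35 at a low level, above background in 1 of 2 and 2 of 3 mice, and lost its call without 1-week mouse 1 or 3-week mouse 3. Zhx3 rose by 0.74 ± 0.14, and Zfhx3 fell by 0.66 ± 0.15. Whether they have a part in the fall of Afp was not tested. The Afp promoter is shown with a motif known from promoters of liver genes, from RefSeq (GRCm38.p6) at chr5:90490464-90490763 on the plus strand. Capitals mark GTTA and TTAAC with NTNN between them, where N is any base, at -39 to -27.
Afp: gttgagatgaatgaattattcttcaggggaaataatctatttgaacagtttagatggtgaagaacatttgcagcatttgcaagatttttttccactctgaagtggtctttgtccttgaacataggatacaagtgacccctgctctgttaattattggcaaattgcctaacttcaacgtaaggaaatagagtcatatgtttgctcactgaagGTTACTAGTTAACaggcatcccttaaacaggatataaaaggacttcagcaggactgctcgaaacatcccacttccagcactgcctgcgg
This motif is in 31 of the 27025 genes with a promoter (0.115%).

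Many enzymes have a general form and one specific to adult liver, and the adult forms were mostly higher at 3 weeks. The list counted here also holds genes that are not enzymes, such as those of the serum proteins Afp and Alb. Of 11 early or general forms 5 were called lower and 3 higher, and of 10 adult liver forms 7 were called higher and none lower. Pkm, the general pyruvate kinase, was at 2.20 and 2.51 and then at 0.39, 0.35 and 0.26 (-2.02 ± 0.18, limma adjusted p = 2.94e-06). Its liver counterpart Pklr changed by 0.55 ± 0.60 and was not called. Hk2, a hexokinase of fetal and muscle cells, fell by 1.77 ± 0.21. The glycogen phosphorylase Pygb, known from brain, fell by 2.52 ± 0.31 and the liver form Pygl rose by 0.86 ± 0.20, although not with quantile normalization. Other general forms did not fall: Mat2a, of methionine use, rose by 0.78 ± 0.14 beside 1.90 ± 0.36 for the liver form Mat1a, and Hk1 and Aldoa were not called.

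**Figure D3:**
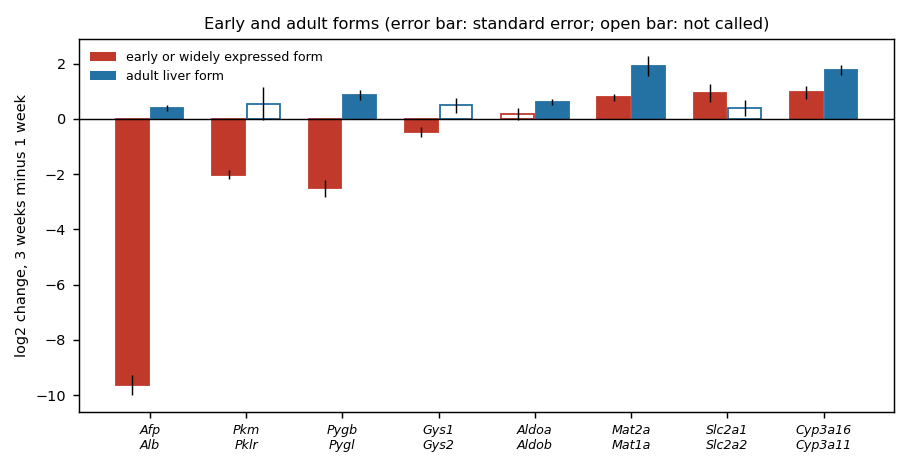
Log2 change from 1 to 3 weeks in control livers for 8 pairs of genes, the early or general form (red) beside the adult liver form (blue), with the standard error from limma; open bars were not called. Afp fell by 9.64 beside a rise of 0.38 for Alb, and Pygb fell by 2.52 beside a rise of 0.86 for Pygl, while both members of the pairs Mat2a and Mat1a, and Cyp3a16 and Cyp3a11, rose.

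Enzymes that break down drugs and hormones rose as a group. Of 42 measured cytochrome P450 genes of families 1 to 3, 30 were called higher and 1 lower, 29 of the 30 by at least 2-fold, with a median of 1.68. Cyp2a4, a steroid hydroxylase, was at 1.67 and 1.79 at 1 week and at 6.89, 7.38 and 7.17 at 3 weeks (5.41 ± 0.22, limma adjusted p = 4.11e-09). Cyp2f2, a P450 of the portal zone, was at 3.11 and 4.17 and then at 7.65, 7.58 and 7.57. The 3-week mice lay together, above both 1-week mice. Cyp3a11, the main drug-metabolizing P450 of adult mouse liver, rose by 1.76 ± 0.18 and its relative Cyp3a16, known from young liver, by 0.96 ± 0.24, although not within the second slide. P450 genes occur as near-identical clusters, so signal may be shared among neighbours. The gene called lower was Cyp3a44, described with the sex-biased genes, a call that was lost under several other settings. The promoter of Cyp3a11, at chr5:145879805-145880104 on the minus strand (RefSeq, GRCm38.p6), is shown with CAAAGTCCA in capitals at -109 to -101, which on the other strand fits TGNACTTTG, a form of the site of the liver receptor HNF4A.
Cyp3a11: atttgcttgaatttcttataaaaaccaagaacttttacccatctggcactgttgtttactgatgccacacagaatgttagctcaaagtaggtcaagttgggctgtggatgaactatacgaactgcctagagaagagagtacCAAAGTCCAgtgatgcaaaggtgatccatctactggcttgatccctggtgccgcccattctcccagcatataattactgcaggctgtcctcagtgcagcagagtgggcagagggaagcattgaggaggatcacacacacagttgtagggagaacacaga
That motif is in 9 of 35 P450 promoters (25.7%) and 1.64% of all genes with a promoter. It is also in 2 of 10 exocrine pancreas promoters (20.0%), so the match is not particular to P450 genes. Near-identical P450 genes do not count as independent matches.

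Conjugating enzymes and transporters were mostly higher as well. Of 45 conjugating enzymes 36 were called higher and 1 lower, with a median of 1.39. Ugt2a3, which attaches glucuronic acid, was at 1.84 and 1.37 and then at 4.54, 4.23 and 4.69 (2.88 ± 0.17, limma adjusted p = 1.21e-07), and the glutathione transferases Gstm2 and Gstt3 rose by 3.39 ± 0.29 and 3.14 ± 0.26. The gene called lower was the sulfotransferase Sult1c2 (-2.07 ± 0.27). Of 21 transporters of the hepatocyte membrane 14 were called higher and none lower, but 9 without 1-week mouse 1 or within the second slide and 8 with quantile normalization, with a median of 1.89 for the 10 uptake carriers and 0.36 for the 11 efflux pumps. Slco2b1, an uptake carrier for organic anions, was at -2.63 and -1.49 and then at 3.07, 3.26 and 3.11 (5.21 ± 0.31, limma adjusted p = 1.14e-07). Abcc2, which exports conjugates into bile, rose by 0.97 ± 0.11. Mfsd2a, a carrier of lipids with docosahexaenoic acid, was below background in both 1-week mice and at 4.36, 4.71 and 2.96 at 3 weeks, at least 1124-fold higher.

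Bile acid synthesis rose in most of its steps. Of 19 genes 12 were called higher and 1 lower, with a median of 0.74. Cyp27a1, which starts the acidic route, was at -0.90 and -1.07 and then at 2.91, 2.95 and 2.97 (3.93 ± 0.15, limma adjusted p = 2.12e-09). Baat, which joins bile acids to amino acids, was at -0.47 and -0.68 and then at 2.29, 2.26 and 2.41. Both sets of 3 lie within 0.15 of each other and over 2 units above 1 week. Cyp7a1, the rate-limiting enzyme of the classic route, rose by less, from 1.56 and 0.90 to 2.79, 2.68 and 2.35 (1.37 ± 0.36, limma adjusted p = 0.00661), and lost its call without 1-week mouse 2 (1.04, limma adjusted p = 0.0818). Cyp8b1, which sets the share of cholic acid, ranged from 2.03 to 3.43 at 3 weeks and was not called. Nr1h4, the bile acid receptor FXR, rose by 1.37 ± 0.15, and Nr0b2, the repressor it induces, was lower by 1.06 ± 0.41 at an adjusted p of 0.0499 in limma and lost its call under several other settings.

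Breakdown of amino acids was among the strongest gains. Of 40 genes of the urea cycle and amino acid use, 30 were called higher and 2 lower, with a median of 1.50. Prodh, the first enzyme of proline breakdown, was at -0.92 and -1.11 at 1 week and at 5.42, 5.81 and 5.67 at 3 weeks (6.65 ± 0.14, limma adjusted p = 1.07e-11). Tdo2, which opens the ring of tryptophan, was at 1.00 and 2.19 and then at 6.27, 6.06 and 5.67. Cps1, the entry enzyme of the urea cycle, was at 2.86 and 3.63 and then at 6.41, 6.29 and 5.99 (2.98 ± 0.30, limma adjusted p = 7.62e-06). In all 3 genes the 6-week levels lay near the 3-week levels. Ass1, a later step of the cycle, rose by 2.79 ± 0.33, and of the 8 urea cycle genes 7 were called higher. Prodh2, a relative of Prodh that acts on hydroxyproline, was called lower (-0.85 ± 0.11), as was Amt (-0.76 ± 0.28), which lost its call without 1-week mouse 2 or 3-week mouse 1 or 2.

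**Figure D4:**
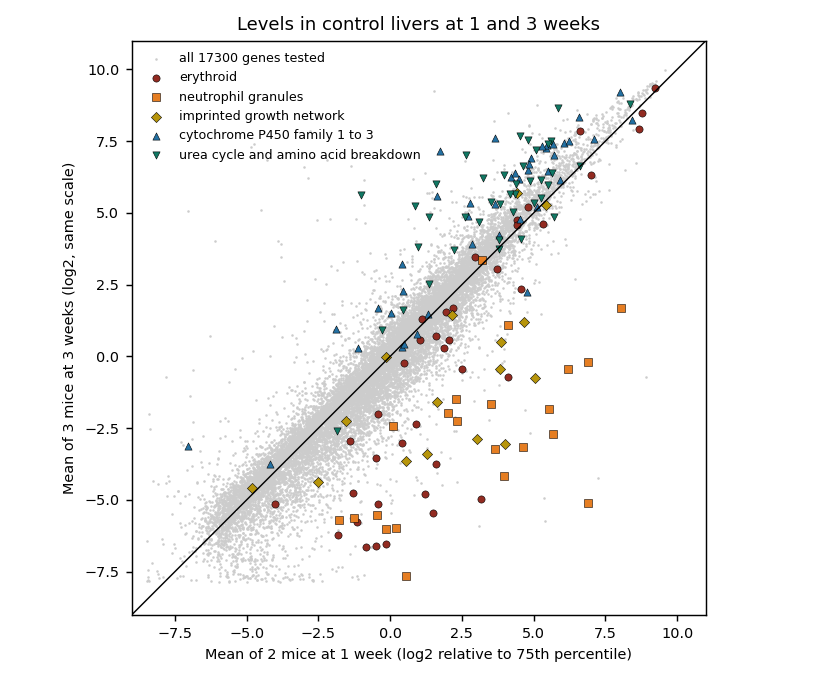
Mean level of each of the 17300 genes tested at 1 week (x axis, 2 mice) and at 3 weeks (y axis, 3 mice) in control livers, log2 relative to each array's 75th percentile; the line marks equal levels. Erythroid, neutrophil and imprinted genes lie mostly below the line, with list medians of -1.57, -6.02 and -3.30, and P450 and amino acid genes mostly above it, with 1.68 and 1.50.

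Of 14 genes of glucose output and glycogen 8 were called higher and 2 lower. Gpt, the alanine transaminase that feeds glucose synthesis, was at 0.69 and 1.76 and then at 6.33, 6.53 and 6.35 (5.18 ± 0.30, limma adjusted p = 1.08e-07). Pck1, the rate-setting enzyme of glucose synthesis, rose by 2.10 ± 0.24, and Slc37a4, which carries glucose 6-phosphate, by 1.99 ± 0.12. Fat synthesis showed some of the largest rises. Of 27 genes of lipogenesis and sugar use 16 were called higher and 1 lower, with a median of 0.82. Scd1, the desaturase that makes monounsaturated fat, was at -1.84 and -0.91 and then at 7.12, 6.88 and 5.95 (8.02 ± 0.55, limma adjusted p = 3.59e-07). Thrsp, a nuclear protein that follows carbohydrate feeding, was at -4.05 and -1.67 and then at 5.54, 5.91 and 7.21 (9.08 ± 1.06, limma adjusted p = 2.49e-05). The 1-week mice differ by over 2 units in Thrsp but stay far below each 3-week mouse. Acacb, an acetyl-CoA carboxylase, rose by 4.49 ± 0.33. Scd2, the desaturase of young tissues, fell by 1.86 ± 0.21 beside the rise of Scd1. Pnpla3, a lipase, was called lower (-1.02 ± 0.37) and lost its call without 1-week mouse 2 or 3-week mouse 1 or 3.

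Genes of fat oxidation were called higher more often than lower. Of 38 genes of fatty acid oxidation and ketogenesis 18 were called higher and 3 lower, with a median of 0.80. There were 11 called higher without 1-week mouse 2, and 6 called lower with quantile normalization. By step, 5 of 6 peroxisomal and omega oxidation genes and 3 of 10 mitochondrial oxidation genes were called higher, and of 4 ketogenesis genes 2 were called lower and 1 higher, differences that were not tested. Acot1, a thioesterase, rose by 4.04 ± 0.49. Bdh1, which makes the ketone body beta-hydroxybutyrate, was at 7.22 and 7.11 and then at 6.08, 6.17 and 6.11 (-1.05 ± 0.16, limma adjusted p = 0.000162). Acat1, an earlier ketone step, fell by 0.82 ± 0.14. Ppara, the receptor that drives this programme, rose by 0.95 ± 0.13. Of 25 cholesterol synthesis genes 11 were called higher and none lower, but 6 without 1-week mouse 1 and 7 without 3-week mouse 3 or with quantile normalization. They were led by Ebp and Nsdhl, each up by 1.54.

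Genes of secreted proteins were called in both directions. Of 45 plasma protein genes 24 were called higher and 3 lower, with a median of 0.33, but with quantile normalization 6 were higher and 11 lower and the median was -0.02, so no direction can be given for the list. The count called higher was 11 without 1-week mouse 2, with the title codes as a block or with the authors' deposited values, and 15 without 1-week mouse 1 or within the second slide. Serpina3k, a protease inhibitor of adult plasma, was at 1.25 and 1.80 and then at 9.29, 9.10 and 9.32 (7.71 ± 0.21, limma adjusted p = 5.24e-11). Apoc3, an apolipoprotein, was at 4.86 and 5.39 and then at 8.74, 8.81 and 8.69. Alb, serum albumin, was near the top of the signal range at both ages, 9.63 and 9.55 and then 9.93, 10.03 and 9.95. Its change was 0.38 ± 0.11. The call was lost with quantile normalization, the authors' deposited values or the title codes as a block. It was also lost within the second slide or without 1-week mouse 2. Of 29 complement and acute phase genes 13 were called higher and 3 lower, or 7 lower with quantile normalization. Orm1, an acute phase carrier protein, rose from -4.21 and -3.61 to 4.38, 3.98 and 3.69 (7.92 ± 0.44, limma adjusted p = 6.70e-08) and stood at 6.36 to 7.15 at 6 weeks. C9, of the lytic complement complex, rose by 2.45 ± 0.42.

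Iron genes were called in both directions. Of 21 genes 9 were called higher and 3 lower, but the list's median of 0.26 turned to -0.17 with quantile normalization, under which 5 were higher and 6 lower. There were 5 called higher with the title codes as a block, and 6 lower with the authors' deposited values. Hamp, which encodes the iron hormone hepcidin, was at 1.50 in 1-week mouse 1 and -3.34 in mouse 2, and at 5.81, 6.04 and 3.92 at 3 weeks. The groups did not overlap, and the change was 6.18 ± 1.55 (limma adjusted p = 0.00533), but without 1-week mouse 2 it was 3.76 at an adjusted p of 0.0957. The related Hamp2 was at -2.15 and -2.06 and then at 5.03, 6.67 and 2.63, with the same mouse 3 lowest. Both ferritin genes rose, Fth1 by 0.68 ± 0.12 and Ftl1 by 0.59 ± 0.13, the latter not with quantile normalization. Hmox1, which breaks down heme, fell by 1.82 ± 0.24, and Slc40a1, the iron exporter, was not called. Trf, transferrin, changed by 0.10 ± 0.10 and was called lower with quantile normalization, at -0.30. Tfr2, an iron sensor, was called at 0.27 ± 0.10, a direction that flipped with quantile normalization. Its call was also lost with the authors' deposited values, another centring, normexp or the title codes as a block. The same held within the second slide, without either 1-week mouse and under further settings.

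In the growth hormone axis, 3 of 13 genes were called higher and 2 lower, beside 27.5% and 22.0% of all genes. Whether these shares differ was not tested. Igf1, the growth factor that takes over from Igf2 after birth, was at 4.43 and 4.89 and then at 6.76, 6.55 and 6.49 (1.94 ± 0.16, limma adjusted p = 1.54e-06). Ghr, the growth hormone receptor, rose by 1.18 ± 0.18. Igfbp2, a binding protein high in fetal liver, fell from 8.46 and 7.90 to 6.43, 6.46 and 6.57. Genes that answer acute growth hormone pulses varied between the 3-week mice and were not called, as Cish with 3.65, 2.21 and 0.79 and Bcl6 with 0.56, 0.55 and 3.05. The list's median of 0.30 changed sign within the second slide, with the title codes as a block, and without 1-week mouse 1 or 3-week mouse 1.

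Many male-biased genes rose, and their levels differed widely between the 3-week mice. Of 14 male-biased genes 12 were called higher, with a median of 3.06, and of 12 female-biased genes 5 were called higher and 1 lower, with a median of 0.52. Mup20, a major urinary protein that males excrete as a scent signal, was at -2.85 and -3.15 at 1 week, at 6.65, 4.78 and 8.38 at 3 weeks and at 9.54 to 9.96 at 6 weeks (9.61 ± 0.79, limma adjusted p = 1.87e-06). Mup3 went from -4.75 and -3.84 to 6.93, 5.11 and 8.51 (11.14 ± 0.90), and Mup18 and Mup17, relatives that are not on the list, rose by 12.18 ± 1.21 and 12.15 ± 1.12. Mouse 2 was lowest and mouse 3 highest at 3 weeks for each of them. Mup genes are near-identical, with promoter windows 55.7% to 94.5% alike over 15 pairs of the 6 named genes that have one, so their values are not independent. Slco1a1, a male-biased carrier, showed the same order of mice, at 1.04, -2.03 and 3.26.

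Some female-biased genes were lower at 6 weeks than at 3 weeks in these male mice. A1bg, a plasma protein, was at -0.09, 0.52 and -2.62 at 3 weeks. A1bg and Sult3a1, a sulfotransferase, were below background at 1 week and again at 6 weeks and above it in all 3 mice at 3 weeks, at least 54.2-fold and 15.6-fold higher than at 1 week. Both were thus above background at 3 weeks only, among the 3 ages measured. Sult2a1, a sulfotransferase of steroids, was at 3.94 and 5.14, then 7.24, 8.17 and 4.65, then -6.17, -7.57 and -5.91, and was not called. Cyp3a44 was at 4.53 and 5.0, then at 2.95, 3.83 and -0.04, then at -4.03 to -4.37. Its call (-2.52 ± 0.95, limma adjusted p = 0.0433) was lost without 3-week mouse 3 and without either 1-week mouse. The call was also lost with array weights, with the slide or the title codes as a block, and within the second slide. Fits of the 8 or the 5 control arrays alone did not call Cyp3a44 either. Mouse 3, which had the highest Mup levels, had the lowest of its group for A1bg, Sult2a1 and Cyp3a44.

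**Figure D5:**
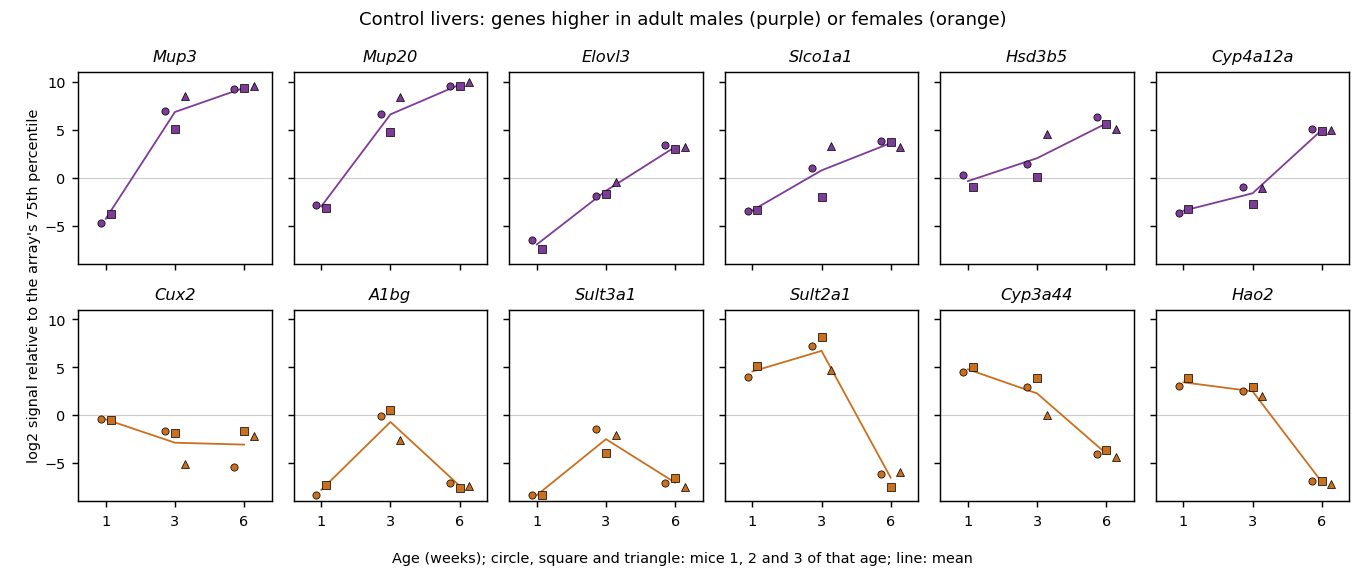
Levels (log2 signal, each array's 75th percentile set to 0) of 6 male-biased genes (purple, upper row) and 6 female-biased genes (orange, lower row) in control livers at 1, 3 and 6 weeks, with 1 symbol per mouse and a line through the means. Mup20 spans 4.78 to 8.38 among the 3-week mice, and Sult2a1 stands at 4.65 to 8.17 at 3 weeks but at -5.91 or less at 6 weeks.

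Transcription factors of the liver were called higher more often than lower. Of 30 factors 16 were called higher and 4 lower, with a median of 0.59. None was called lower without 1-week mouse 1 or with the title codes as a block, 1 within the second slide, and 2 without 1-week mouse 2 or 3-week mouse 1. Cebpb, a factor of the acute phase and of glucose synthesis, was at 2.98 and 2.49 and then at 5.41, 5.65 and 5.54 (2.80 ± 0.24, limma adjusted p = 2.80e-06). Hnf4a was at 6.22 and 6.18 and then at 7.55, 7.60 and 7.18. Nr1i2 and Nr1i3, the receptors that sense drugs, rose by 1.25 ± 0.15 and 0.88 ± 0.18, and Cebpa, a factor of the resting hepatocyte, by 0.89 ± 0.18. Gata4, of early liver, fell by 0.62 ± 0.16, and Ahr, the dioxin receptor, by 0.73 ± 0.21, both calls lost under the first 2 of these settings. Foxa2, Prox1, Hhex and Gata6 were not called.

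Genes known for a zone of the liver lobule were called in both directions. Of 12 portal-zone genes 6 were called higher and 1 lower, and of 15 central-zone genes 8 were called higher and 2 lower. Sds, a serine dehydratase of the portal zone, was at 0.33 and 1.38 and then at 5.62, 5.71 and 4.35 (4.37 ± 0.72, limma adjusted p = 0.00032). Slc1a2, a glutamate carrier of the cells around the central vein, was at -2.37 and -2.10 and then at 2.55, 2.53 and 2.50 (4.76 ± 0.25, limma adjusted p = 4.48e-08). Glul, the glutamine synthetase of the same cells, rose by 1.49 ± 0.30. Against them, the central-zone carrier Slc13a3 went from 6.54 and 6.31 to 2.39, 2.90 and 2.82, and Lgr5, a Wnt target there, fell by 1.78 ± 0.42, although not with the title codes as a block (-0.89). Cdh1, the floxed gene itself and the gene of the adhesion protein E-cadherin, was at 2.10 and 2.22 at 1 week, at 0.69, 0.59 and 0.76 at 3 weeks and at 1.00, 0.59 and 0.43 at 6 weeks. Its change in these controls without Cre was -1.48 ± 0.39 (limma adjusted p = 0.00755), and -1.45 at an adjusted p of 0.0814 with the title codes as a block.

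Several clock genes rose in these livers, which per the labels' protocol were all taken in the hours after a fixed start time. Of 19 genes 11 were called higher and none lower, with a median of 0.80, and 7 without 1-week mouse 2. Ciart, a repressor within the clock, was at -5.15 and -5.18 and then at -0.23, -0.04 and 0.09 (5.11 ± 0.19, limma adjusted p = 2.14e-09), 5 units above 1 week in each mouse. Per1, another repressor, rose by 2.33 ± 0.20, and Dbp, an output gene, was at 1.69 and 1.60 and then at 3.07, 3.50 and 4.37. A single time of day cannot show whether the mean level or the timing differed. The Ciart promoter, at chr3:95882179-95882478 on the minus strand (RefSeq, GRCm38.p6), is shown for its 3 copies of CACGTG, the E-box bound by the clock activators, in capitals at -116, -58 and -44.
Ciart: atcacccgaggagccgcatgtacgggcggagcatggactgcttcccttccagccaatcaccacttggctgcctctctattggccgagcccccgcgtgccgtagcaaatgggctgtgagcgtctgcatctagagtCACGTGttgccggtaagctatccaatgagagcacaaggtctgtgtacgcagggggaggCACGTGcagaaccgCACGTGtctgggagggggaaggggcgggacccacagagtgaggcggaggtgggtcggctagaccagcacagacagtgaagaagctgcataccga
CACGTG is in 5 of 16 clock gene promoters (31.2%) and 8.09% of all genes with a promoter. It is also in 5 of 14 promoters of immediate early and stress genes (35.7%), so the match is not particular to clock genes.

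Genes of handling stress and of interferon were called in both directions. Of 17 immediate early and stress genes 6 were called higher and 4 lower. Gadd45g, a stress-induced growth arrest gene, was at 2.19 and 2.08 and then at 6.33, 6.16 and 4.77 (3.62 ± 0.70, limma adjusted p = 0.00103), and Zfp36, which shortens the life of cytokine messages, rose by 2.00 ± 0.18. Klf6 fell by 0.76 ± 0.16. Of 14 interferon-induced genes 4 were called lower and 1 higher, but none lower without 1-week mouse 1 or with the title codes as a block, and 2 without 3-week mouse 1 or 2. Gbp2 was at 2.78 and 1.34 and then at 0.17, -0.12 and 0.07 (-2.02 ± 0.51, limma adjusted p = 0.0055), while Bst2 rose by 1.51 ± 0.16. The 1-week mouse 1 had the higher level for Gbp2, Zbp1 and Isg15. The part of handling or infection in the other changes was not tested.

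Outside the lists, 1 gene among the 12 largest falls belongs to no group above. Krt20, a keratin of gut and other epithelia, was at 2.99 and 3.22 at 1 week and not well above background at 3 weeks, at least 399-fold lower. Among all genes called, 182 changed by at least 16-fold, 66 higher and 116 lower at 3 weeks.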

How the data were processed

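Liver RNA of 16 male mice was labelled with Cy3 and hybridised to 16 Agilent 1-colour arrays, read out with Feature Extraction 10.7.3.1 per the file headers. The authors deposited scanner files with the processed signal intensity, which Feature Extraction had background-subtracted, and a series matrix of log2 values, used as an alternative. From the intensity, log2 minus each array's 75th percentile over non-control spots was computed. Spots of a probe were averaged, and control and outlier-flagged spots left out. Of 55681 probes, 26576 matched 1 gene by accession. A gene was tested through its brightest probe if all arrays of at least 1 group had it well above background (17300 genes). limma 3.58.1 (R 4.3.3) was fitted to all 16 arrays with a mean for each of 6 groups, with Benjamini-Hochberg adjustment at 0.05, after tests on simulated data. The number of mice limits the precision.

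The members and gene lists were chosen with earlier results of these data known. Named by rule were the 12 largest rises and falls, up to 6 called members of each list plus 2 in the other direction, and all members of 9 short lists. Ccnd1, Cd4, Cd79a, Cd8a, Clec1b, Clec4f, Elane, Ermap, Gata1, Hba-a2, Hbb-bt, Mcm2, Slco1a1, Sult2a1, and Cux2, Hao2, Hsd3b5, Elovl3 and Cyp4a12a in the plot of sex-biased genes, were chosen after their values were seen. Alternatives were another centring, quantile normalization, normexp, the authors' log2 values, other filters, probe means, fewer arrays, slide or title code as a block, array weights and leaving out each mouse. Some genes of the lists are counted but not reported here by name.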

Additional observations from a re-analysis of the deposited data

Results flagged for a closer look

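Only the 339 named genes were searched here, not all genes tested. In 2 of them the values of the control mice at 3 weeks all lay on one side of those at 1 week. The values of the Cre mice all lay on the other side, while the test of the difference did not pass adjustment. Klf6, an immediate early transcription factor, was at 1.53 and 1.56 in the 1-week control mice and at 0.65, 1.06 and 0.66 in the 3-week control mice. In the Cre mice it was at 1.56 and 1.27 and then at 1.79, 1.68 and 1.61. The changes were -0.76 and 0.28, a difference of 1.04 ± 0.23 (SE, limma adjusted p = 0.411). Smad7, an inhibitor of BMP signals to hepcidin, was at 0.52 and 0.38 and then at 0.64, 0.86 and 0.62 in control mice, and at 0.46 and 0.37 and then at -0.06, 0.01 and 0.08 in Cre mice. Its changes were 0.26 and -0.41, a difference of -0.66 ± 0.24 (limma adjusted p = 0.411). The Cre and control comparisons have separate mice.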

How the results depend on the processing

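The count of called genes was 8554 of 17300. It was 16299 (9774 higher, 6525 lower; 2628 and 3605 by at least 2-fold) over all 43198 probes, where more features were tested. With normexp, which used the median spot signal, 1200 genes were called at least 2-fold lower. The median falls of the neutrophil, platelet and lymphocyte lists were also smaller with it. Leaving out 1 mouse gave 6238 to 8039 called genes, lowest without 1-week mouse 1. With the title codes as a block 6245 genes were called (3426 higher, 2819 lower), and within the second slide 6562. Of the named genes, 45 lost their call with that block and 30 within the slide. The difference from Cre livers was called for 0 to 3 genes when 1 control mouse was left out (3 without 1-week mouse 2), and for 2 over all probes. Of 292 called named genes, 214 were called in the same direction under each of the 19 alternatives that tested them. The sign reversed with quantile normalization for Dcn (-0.10), Tfr2 (-0.17), Trf (-0.30) and Urod (-0.024), and with the mean of probes for Sall4 (-0.38), where the cause was not tested. With only 2 mice at 1 week, and litters not named as such, calls of small changes rest on few animals. Replicate numbers were given in accession order and pair no mice.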
